A study of Mus musculus with 4 samples.

Results

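The genes described here are 46 skeletal muscle genes, followed in whole dorsal skin of mice, whose deepest layer in rodents is the panniculus carnosus, a thin sheet of striated muscle. They were listed by name, as genes of the contractile apparatus, calcium handling and energy supply of muscle fibres, by a rule that uses no measured value. The list was nonetheless drawn up with earlier results of these arrays known, so that counts over it are descriptions and not independent evidence. Of the 46 genes, 45 had at least 1 probe set that the platform annotation assigns to a single gene, out of 18194 genes with such a set, and Xirp2 was the gene without one. Skin was taken from male mice of strain C57B6 at rest between hair growth cycles (adult telogen), at postnatal day 54 (P54, 2 arrays) and postnatal day 59 (P59, 2 arrays), to compare a middle with a late time of that phase. The labels name no mutation and no agent, so age is the stated difference between the groups. They call the samples biological replicates without saying how many animals made up each, and say nothing of the depth to which the skin was excised. P-values therefore measure the spread between these samples, which may be technical. In whole skin, fewer muscle fibres and less RNA per fibre cannot be told apart.

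A striated muscle fibre contracts when thick filaments of myosin pull on thin filaments of actin, and the troponin complex on the thin filament makes this pull depend on calcium. Calcium is released from the sarcoplasmic reticulum through the ryanodine receptor, is bound there by calsequestrin, and is pumped back by a calcium ATPase that the small membrane protein sarcolipin inhibits. Fast and slow fibres build these parts from different genes: fast fibres use Myh4, Myh1 and Myh2, Tnnt3, Tnni2 and Tnnc2, and slow fibres use Myh7, Tnnt1, Tnni1 and Tnnc1. The members were divided into 14 fast genes, 7 slow genes and 25 shared genes, the last group holding genes used by both fibre kinds or not tied to one of them. The rodent panniculus carnosus is known as a mainly fast muscle.

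To show the control regions of genes that differed in their behaviour, the 200 bases before the RefSeq start of 6 members are given 5′ to 3′ on the gene's strand, in build GRCm38.p6. The first 4 belong to genes that were higher on both P59 arrays than on either P54 array, and Acta1 and Myh4 to genes whose groups overlapped. Capitals mark E-boxes (CANNTG, the motif of myogenic factors such as MyoD), MEF2 motifs and CArG boxes (bound by serum response factor), each on both strands, and TATAAA on the sense strand.
Lmod2, chr6:24597571-24597770, plus strand: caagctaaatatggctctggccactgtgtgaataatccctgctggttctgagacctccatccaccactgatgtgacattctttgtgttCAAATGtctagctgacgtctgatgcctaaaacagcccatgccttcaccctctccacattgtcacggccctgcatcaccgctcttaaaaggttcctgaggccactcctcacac
Lrrc2, chr9:110951345-110951544, plus strand: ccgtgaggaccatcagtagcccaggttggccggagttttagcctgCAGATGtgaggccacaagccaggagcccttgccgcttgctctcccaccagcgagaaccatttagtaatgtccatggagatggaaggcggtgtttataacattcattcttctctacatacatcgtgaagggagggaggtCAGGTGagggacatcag
Mybpc1, chr10:88605153-88605352, minus strand: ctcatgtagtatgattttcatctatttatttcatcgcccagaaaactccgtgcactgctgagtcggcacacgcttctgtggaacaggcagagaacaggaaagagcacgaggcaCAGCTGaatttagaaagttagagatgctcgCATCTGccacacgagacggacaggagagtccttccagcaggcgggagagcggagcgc
Myoz2, chr3:123034988-123035187, minus strand: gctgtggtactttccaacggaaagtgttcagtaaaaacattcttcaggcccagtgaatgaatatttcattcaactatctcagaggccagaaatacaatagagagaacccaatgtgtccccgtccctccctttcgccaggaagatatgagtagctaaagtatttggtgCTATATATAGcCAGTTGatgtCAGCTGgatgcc
Acta1, chr8:123894776-123894975, minus strand: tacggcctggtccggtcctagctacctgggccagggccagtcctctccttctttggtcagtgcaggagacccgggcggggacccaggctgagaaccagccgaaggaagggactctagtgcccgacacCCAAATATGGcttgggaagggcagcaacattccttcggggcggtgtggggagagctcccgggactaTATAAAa
Myh4, chr11:67237612-67237811, plus strand: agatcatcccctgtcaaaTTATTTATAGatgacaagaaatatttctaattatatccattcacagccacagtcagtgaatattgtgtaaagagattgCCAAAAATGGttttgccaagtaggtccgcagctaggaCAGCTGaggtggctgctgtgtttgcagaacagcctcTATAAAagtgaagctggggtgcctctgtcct
Of these stretches, those of Myoz2 and Myh4 hold a MEF2 motif, and those of Acta1 and Myh4 hold a CArG box and TATAAA. An E-box is found in all of them but that of Acta1. RefSeq's table of start-site windows (300 bases, 250 before and 50 after the start) had 36 of the 46 members among 27025 genes. The E-box CAGCTG was present in 19 of these 36 members (52.8%) against 18.3% of all genes, and CACCTG in 11 (30.6%) against 22.6%. Both are forms of CANNTG, which is so short that 75.0% of all genes hold it. A MEF2 motif was found in 8 members (22.2% against 3.70% of all genes), a CArG box in 3 (8.33% against 1.81%), and TATAAA on the sense strand in 6 (16.7% against 9.77%). GGAATG, the core of the MCAT motif of TEAD factors, was found on either strand in 12 members (33.3% against 16.6%). By class, CAGCTG was found in 5 of 10 fast, 3 of 7 slow and 11 of 19 shared members with a window. These are matches of letters, not measured binding.

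The deposited values are intensities, made by the authors with RMA, and were taken to log2, so that a difference of 1 is a doubling. A level belongs to its probe set, and levels of different genes are not compared. Genes with a mean log2 intensity above 6.58 over the 4 arrays were tested, which kept 10916 genes and 42 of the 45 measured members. The 3 members below this filter were the slow genes Myh7, Tnni1 and Tnnc1. All 42 members tested lay above the filter level at P54 as well as at P59, so that none of them passed through 1 group alone. The median log2 intensity of each array lay between 6.02 and 6.12. P59 replicate 2 stood apart from the others across all genes, with Spearman correlations of 0.915 to 0.938 to the other 3 arrays.

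The label of the genes was checked on the markers of other muscle kinds, by whether they passed the filter. The 14 fast members passed, with levels between 11.10 and 14.33 on all arrays. Of the 8 genes of a cardiac list, 7 lay below the filter, among them the heart genes Myh6 (3.49 to 3.69) and Nppa (3.93 to 4.13). The remaining cardiac gene, Tnnt2, passed, as did 10 of the 10 genes of a smooth muscle list, so genes of smooth muscle were measured too. RNA of skeletal muscle genes was thus measured in every sample. Arrays of whole skin do not show in which layer it lay, and the assignment to the panniculus carnosus rests on anatomy.

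Most muscle genes followed 1 order over the arrays, in which replicate 1 of each time was the higher one. P59 replicate 1 held the highest level of 31 of the 45 measured members and P54 replicate 2 held the highest level of 0. The lowest level was found in P54 replicate 2 for 27 members, in P59 replicate 2 for 17, in P54 replicate 1 for 1 and in P59 replicate 1 for 0. Of all 10916 genes tested, 4587 were lowest in P54 replicate 2 and 1907 highest in P59 replicate 1. Replicate 1 exceeded replicate 2 at both times for 39 of the 45 members, against 26% of all genes tested. At P54 it did so for 44 members and 7950 of the genes tested, and at P59 for 40 members and 4132 of the genes tested. The P54 part of this order was thus common among all genes. The labels do not say that a replicate number marks a shared litter or day. Each array's median departure from the genes' means over the 4 arrays was 0.15 in P54 replicate 1, -0.38 in P54 replicate 2, 0.35 in P59 replicate 1 and -0.13 in P59 replicate 2 over the 42 members tested. Over all genes tested these medians were 0.06, -0.10, -0.02 and 0.10.

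**Figure D1:**
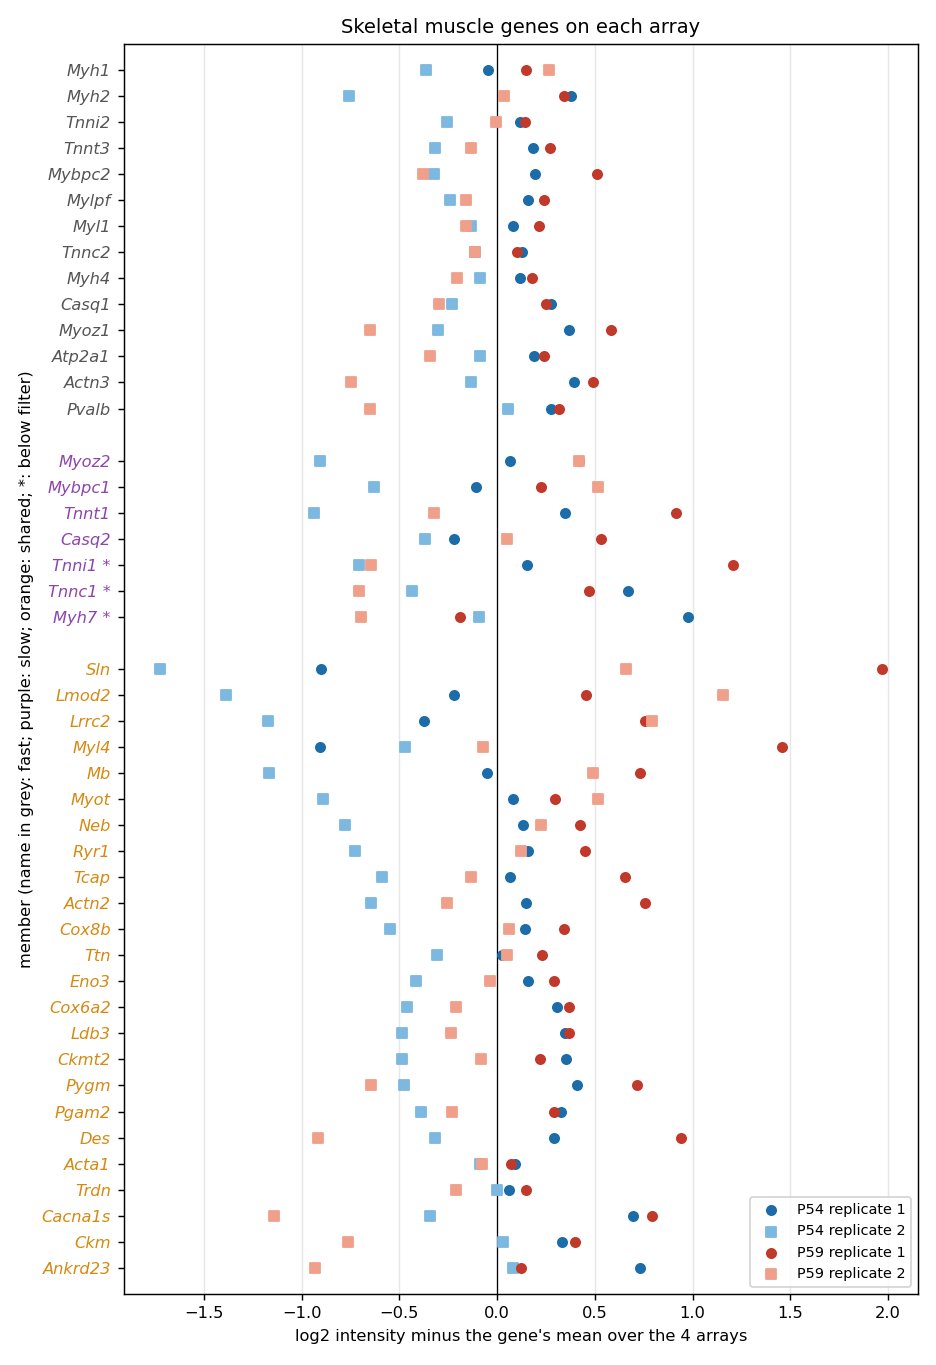
Log2 intensity of 45 muscle genes on each of the 4 arrays, minus the gene's mean over the arrays (horizontal axis), with fast, slow and shared genes in blocks ordered by the difference between P59 and P54. Circles (replicate 1) lie to the right of squares (replicate 2) of the same time for most genes; at the top of the shared block, Sln, Lmod2, Lrrc2, Myl4 and Mb have both P59 arrays to the right of both P54 arrays.

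Between P54 and P59, the largest differences among the members were those of Sln, Lmod2, Lrrc2, Myl4 and Mb, which were higher at P59 by 2.63, 1.61, 1.55, 1.38 and 1.22 on the log2 scale (n = 2 arrays a time). These genes encode an inhibitor of the calcium pump, an actin filament protein, a leucine-rich repeat protein, a myosin light chain and the oxygen store of the fibre. The skeletal actin gene Acta1, a shared member, and the fast myosin heavy chain gene Myh4 differed by 0.00 and -0.03. Without P59 replicate 2, the array that stood apart, the 5 largest were 3.29, 1.26, 1.53, 2.15 and 1.34. In all, 0 of the 42 members passed limma's test at an adjusted p of 0.05, against 0.0183% of all genes tested. This count rests on limma's estimate of the variance over 4 arrays. A fit that leaves out 1 array has a single array at 1 time, so a pass in it adds no support. Over these fits the difference of Sln ranged from 1.97 to 3.29. In the fits without a P54 array limma gave every gene 1 common variance. At an unadjusted limma p under 0.05, 9 members were higher at P59 and 1 was lower, 23.8% of the 42 members against 6.49% of all genes tested. The share for higher genes alone was 3.47% of all genes tested and for lower genes 3.01%. The 9 were Sln, Lmod2, Lrrc2, Myl4, Mb, Myoz2, Myot, Mybpc1 and Casq2, and the 1 lower gene was Ankrd23. Groups did not overlap, with P59 higher, for 12 members (28.6%) against 18.9% of all genes tested, these being the 9 named with Myh1, Neb and Ttn. The groups were separate in the other direction for 0 members tested, against 14.8% of all genes, and in either direction for the same 12, against 33.7%. Of the 42 members, 30 had a difference above 0, as did 58.4% of all genes tested. The median difference over the 42 members was 0.14, beside 0.05 over all genes tested. It was -0.09 without P54 replicate 2 and -0.05 without P59 replicate 1, and it was 0.53 without P54 replicate 1 and 0.49 without P59 replicate 2, so that its direction rested on single arrays. Leaving out 1 array or another turned the sign of 13 of the 14 fast members, of 1 of the 4 slow members tested (Tnnt1) and of 12 of the 24 shared members tested, while groups that do not overlap keep their sign by construction.

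By fibre class, the medians of the difference were 0.02 for the 14 fast members, 0.66 for the 4 slow members tested and 0.27 for the 24 shared members tested. With the 3 slow genes below the filter counted in, the median of the 7 slow members was 0.59. These 3 did not share a direction: Tnni1 differed by 0.56, Tnnc1 by -0.23 and Myh7 by -0.88. The groups of Myh7 were separate with P59 lower, so the slow class was not higher throughout. With 1 array left out the fast median ranged from -0.18 (without P59 replicate 1) to 0.26 (without P59 replicate 2), the slow median from 0.41 (without P54 replicate 2) to 1.11 (without P54 replicate 1) and the shared median from 0.02 (without P54 replicate 2) to 0.66 (without P59 replicate 2). An unadjusted limma p under 0.05 was found for 0 of the 14 fast members, 3 of the 4 slow members tested and 7 of the 24 shared members, 6 of these 7 being higher, beside 6.49% of all genes tested. The difference between the classes was not tested, since the genes of a class are not replicates. The classes also lay at different levels, between 11.10 and 14.33 for fast members and between 7.02 and 11.73 for slow members tested. Over the 14 members of any class with a mean of at least 13, the median difference was 0.025. Class and level thus went together, and the part of level in the class medians was not tested.

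Myosin forms the thick filament. Myh4, the myosin heavy chain of the fastest fibres (type IIb), was at 14.05 and 13.85 in P54 replicates 1 and 2 and at 14.12 and 13.73 in P59 replicates 1 and 2. Its P59 levels lay on either side of its P54 levels, with a difference of -0.03 (95% interval -0.56 to 0.51). Myh1, the heavy chain of type IIx fibres, gave 13.27 and 12.95 at P54 and 13.46 and 13.58 at P59, a separate but small difference of 0.41 (SE 0.23, adjusted p = 0.869). Its probe set is of a kind (_x_at) that can match transcripts of related genes, and Myh2, Myh1 and Myh4 lie in 1 cluster of similar genes. Myh2, the heavy chain of fast oxidative (type IIa) fibres, read 12.24 and 11.10 on the P54 arrays and 12.20 and 11.89 on the P59 arrays, so that P54 replicate 2 alone was low (difference 0.38, SE 0.34). Myh7, the slow heavy chain, was near background, with 6.49 and 5.41 at P54 and 5.32 and 4.81 at P59, and was not tested.

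Of the myosin light chains, the fast genes Myl1 (13.96 to 14.33) and Mylpf (13.41 to 13.90) each differed by less than 0.1 between the times. Myl4, the light chain of the atrium and of embryonic muscle, had log2 levels of 6.64 and 7.07 (P54) against 9.001 and 7.47 (P59). The higher mean at P59 (1.38, SE 0.42, adjusted p = 0.499) came with a wide gap between the P59 arrays, and the difference was 0.62 without P59 replicate 1 and 0.66 with the mean of its sets, the other of which lay below the filter. The myosin-binding proteins C link myosin and actin filaments. Mybpc1, classed here as slow, gave 11.11 and 10.59 at P54 and 11.44 and 11.73 at P59 (0.74, SE 0.26, adjusted p = 0.600). The fast gene Mybpc2 read 12.61 and 12.09 on the P54 arrays and 12.92 and 12.03 on the P59 arrays. The P59 levels of Mybpc2 enclosed its P54 levels (0.13, SE 0.32), whereas those of Mybpc1 lay above them. The other sets of Mybpc1 differed by 0.12 and 0.46 and had overlapping groups.

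On the thin filament, Acta1, the skeletal actin gene, had log2 levels of 14.47 and 14.29 (P54) against 14.45 and 14.30 (P59). The times were thus alike within 0.51 in either direction (difference 0.00, 95% interval -0.51 to 0.50). The highest value of the whole table was 14.55, and 13 of the 45 members came within 1 log2 unit of it. For the 14 members with a mean of at least 13 the range over the 4 arrays had a median of 0.56, against 1.23 for the 25 members between 8 and 13 and 1.76 for the 6 below 8. Members near the top of the scale hence varied least, and whether the scale limits them was not tested.

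Fast troponin genes differed little between the times. Tnnt3, the fast troponin T gene, gave 13.87 and 13.37 at P54 and 13.96 and 13.55 at P59. Tnni2, the fast inhibitory subunit, was, in the same order, at 13.98 and 13.61 and at 14.01 and 13.86. Tnnc2, the fast calcium-binding subunit, was at 14.18 and 13.94 and at 14.15 and 13.94. All 3 were lower in replicate 2 of each time than in either replicate 1, and their differences were 0.14, 0.14 and -0.01, with 95% intervals that held 0. Their slow partners had weak signals and wide gaps between replicates. Tnnt1, the slow troponin T gene, read 8.30 and 7.02 on the P54 arrays and 8.87 and 7.63 on the P59 arrays (0.59, SE 0.45). Tnni1, in the same order, was at 6.59 and 5.73 and at 7.65 and 5.80. Tnnc1 was at 7.13 and 6.02 and at 6.93 and 5.76. In each of these genes the replicates of a time lay further apart than the means of the times, and replicate 2 was again the lower one.

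Lmod2, which encodes leiomodin 2, a protein that starts and lengthens actin filaments, stood out among the thin filament genes. It had log2 levels of 9.87 and 8.70 (P54) against 10.54 and 11.24 (P59), a 3.04-fold higher mean (1.61, SE 0.37, adjusted p = 0.289). Unlike the troponins it was highest in P59 replicate 2, and its difference ranged from 1.02 to 2.19 when 1 array was left out. Neb, the gene of nebulin, which runs along the thin filament, was higher by 0.65 (SE 0.30, adjusted p = 0.787), with P54 replicate 2 lowest at 11.01, and by 0.19 without that array.

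**Figure D2:**
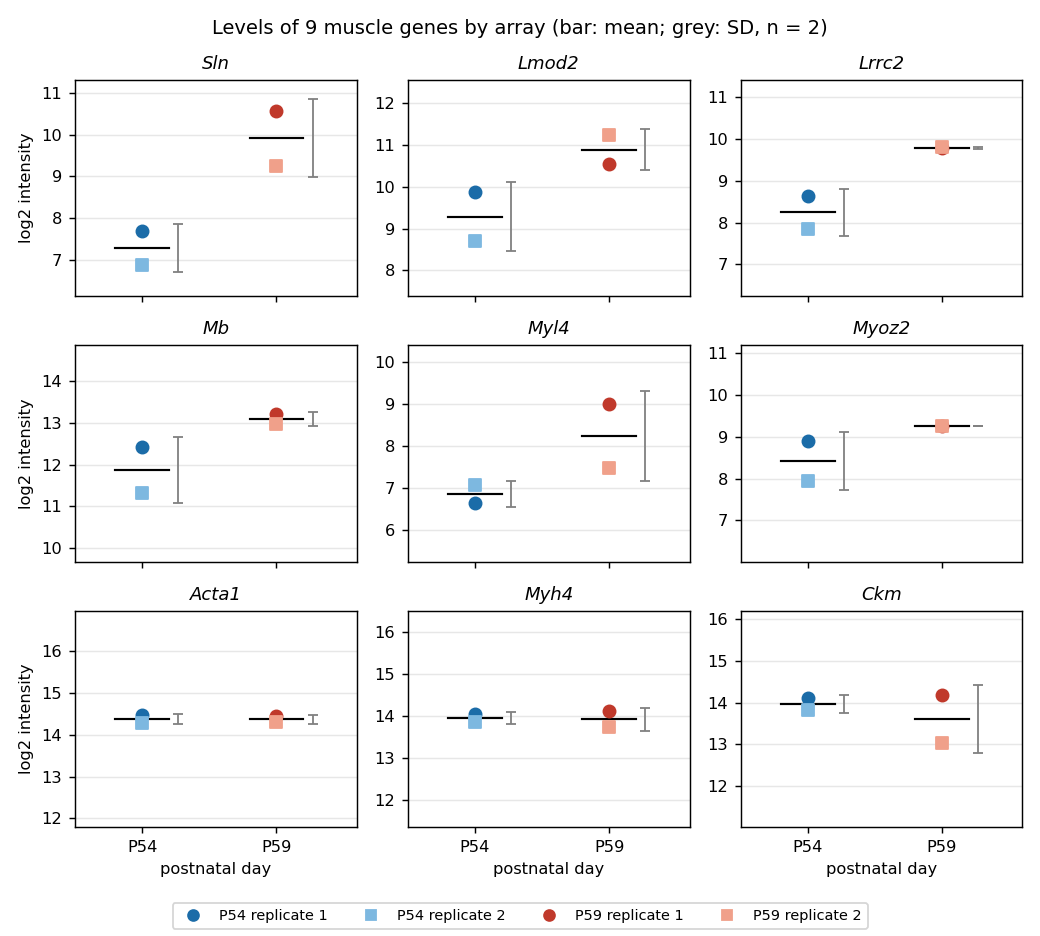
Log2 intensity of 9 muscle genes on each array (vertical axis, the same span in every panel) at P54 and P59, with the mean as a black bar and the SD of 2 arrays in grey. The groups are separate for Sln, Lmod2, Lrrc2, Mb, Myl4 and Myoz2, and overlap for Acta1, Myh4 and Ckm.

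At the Z-disc, the structure that anchors thin filaments, the slow gene Myoz2 and its fast partner Myoz1, which encode calsarcins, binding partners of calcineurin, differed by 0.84 and -0.06, though the gap between them was not tested. Myoz2 gave 8.91 and 7.94 at P54 and 9.26 on both P59 arrays (1.79-fold, SE 0.31 on the log2 scale, adjusted p = 0.619), and its difference was 0.35 without P54 replicate 2. Myoz1 gave 12.93 and 12.26 at P54 and 13.15 and 11.92 at P59, a range wider at P59 than between the times (-0.06, SE 0.38), and averaging its probe sets gave 0.42. Myot, which encodes myotilin, was higher by 0.81 (SE 0.31, adjusted p = 0.668), with 11.81 and 10.83 at P54 against 12.02 and 12.24 at P59, and by 0.33 without P54 replicate 2. Des, the intermediate filament gene desmin, which smooth muscle expresses too, read 12.17 and 11.56 on the P54 arrays and 12.82 and 10.96 on the P59 arrays. The P59 replicates of Des differed by more than any pair across the times, and its difference went from -0.90 without P59 replicate 1 to 0.95 without P59 replicate 2. Ankrd23, a stress-responsive ankyrin repeat gene of the sarcomere, had the lowest difference of the members tested, 11.07 and 10.43 at P54 against 10.47 and 9.41 at P59 (-0.81, SE 0.35, adjusted p = 0.761). Its groups met at 10.43 and 10.47, and without P59 replicate 2 the difference was -0.28. The remaining genes of this structure were Ttn (titin), Tcap (its cap protein telethonin), Actn2 and Actn3 (alpha-actinins, Actn3 being the fast one) and Ldb3 (a PDZ-LIM protein). They differed by 0.28, 0.52, 0.50, -0.26 and 0.14 in this order, and the groups of Ttn alone were separate.

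Among the calcium handling genes, Sln had the largest difference of all members. Sln, the gene of sarcolipin, had log2 levels of 7.70 and 6.87 (P54) against 10.57 and 9.26 (P59), a 6.19-fold higher mean (2.63, SE 0.41, adjusted p = 0.0926). Its adjusted limma p ranged from 0.000523 (array medians set equal) to 0.384 (no filter) over the fits on all 4 arrays without a block. With the replicate number as a block it was 1.63e-14. That fit has 1 residual degree of freedom and assumes a pairing that the labels do not state, so its p adds no support. The difference of Sln ranged from 1.97 to 3.29 with 1 array left out. Both P59 arrays lay far above both P54 arrays. The other set of Sln was near background, between 4.42 and 4.64, and with the mean of both sets the difference was 1.38. Atp2a1, the fast calcium pump SERCA1 that sarcolipin inhibits, gave 14.05 and 13.77 at P54 and 14.10 and 13.52 at P59 (-0.10, 95% interval -0.69 to 0.48). The pump gene therefore showed no difference beyond its replicate spread.

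Calsequestrin, which stores calcium in the reticulum, has a slow and a fast gene too. Casq2, the slow and cardiac form, read 7.18 and 7.03 on the P54 arrays and 7.93 and 7.45 on the P59 arrays (0.59, SE 0.25, adjusted p = 0.743). Its only probe set is weak and of a kind (_s_at) that can match several transcripts. Casq1, the fast form, had log2 levels of 13.02 and 12.51 (P54) against 12.99 and 12.45 (P59) (-0.05, SE 0.28). Pvalb, the calcium buffer parvalbumin of fast fibres, gave 13.89 and 13.67 at P54 and 13.94 and 12.97 at P59, low in P59 replicate 2 alone (-0.33, SE 0.31; 0.15 without that array). The release channel gene Ryr1 read 11.94 and 11.05 on the P54 arrays and 12.23 and 11.90 on the P59 arrays (0.57, SE 0.30), while its other set differed by -1.30, with the groups separate. Cacna1s, the voltage sensor that opens this channel, had log2 levels of 10.02 and 8.98 (P54) against 10.11 and 8.18 (P59), with replicate 2 low at both times (-0.35, SE 0.53). Trdn, the gene of triadin, which holds calsequestrin at the channel, ranged from 11.21 to 11.57.

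Of the 8 energy supply genes, the oxygen store gene Mb alone had an unadjusted p under 0.05 and separate groups. Mb gave 12.43 and 11.32 at P54 and 13.21 and 12.97 at P59, which is 2.33-fold higher on average (1.22, SE 0.34, adjusted p = 0.463), and the difference was 0.66 without P54 replicate 2. Its other set lay between 4.82 and 5.02, near background, and with the mean of both sets the difference was 0.62. Ckm, the muscle creatine kinase gene, read 14.12 and 13.82 on the P54 arrays and 14.18 and 13.02 on the P59 arrays, low in P59 replicate 2 (-0.36, SE 0.35; 0.22 without that array). Cox8b, a subunit of cytochrome oxidase in muscle, heart and brown fat, had log2 levels of 11.32 and 10.63 (P54) against 11.52 and 11.24 (P59) (0.41, SE 0.28). The glycolytic genes Eno3 (beta-enolase), Pygm (glycogen phosphorylase) and Pgam2 (phosphoglycerate mutase) differed by 0.26, 0.07 and 0.06, and the mitochondrial genes Ckmt2 and Cox6a2 by 0.13 and 0.16. The intervals were wide, such as -0.21 to 1.02 for Cox8b, -1.13 to 0.40 for Ckm and -0.87 to 1.01 for Pygm, and replicate 1 was above replicate 2 at both times in 8 of the 8 energy genes.

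Lrrc2, a leucine-rich repeat gene of heart and skeletal muscle, had the closest P59 pair among the 5 members with the largest differences. It gave 8.64 and 7.84 at P54 and 9.77 and 9.81 at P59 (2.92-fold, difference 1.55, SE 0.28, adjusted p = 0.179). Its other probe set, 7.13 and 6.27 at P54 against 7.98 and 8.36 at P59, differed by 1.47, so that both sets put both P59 arrays above both P54 arrays.

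**Figure D3:**
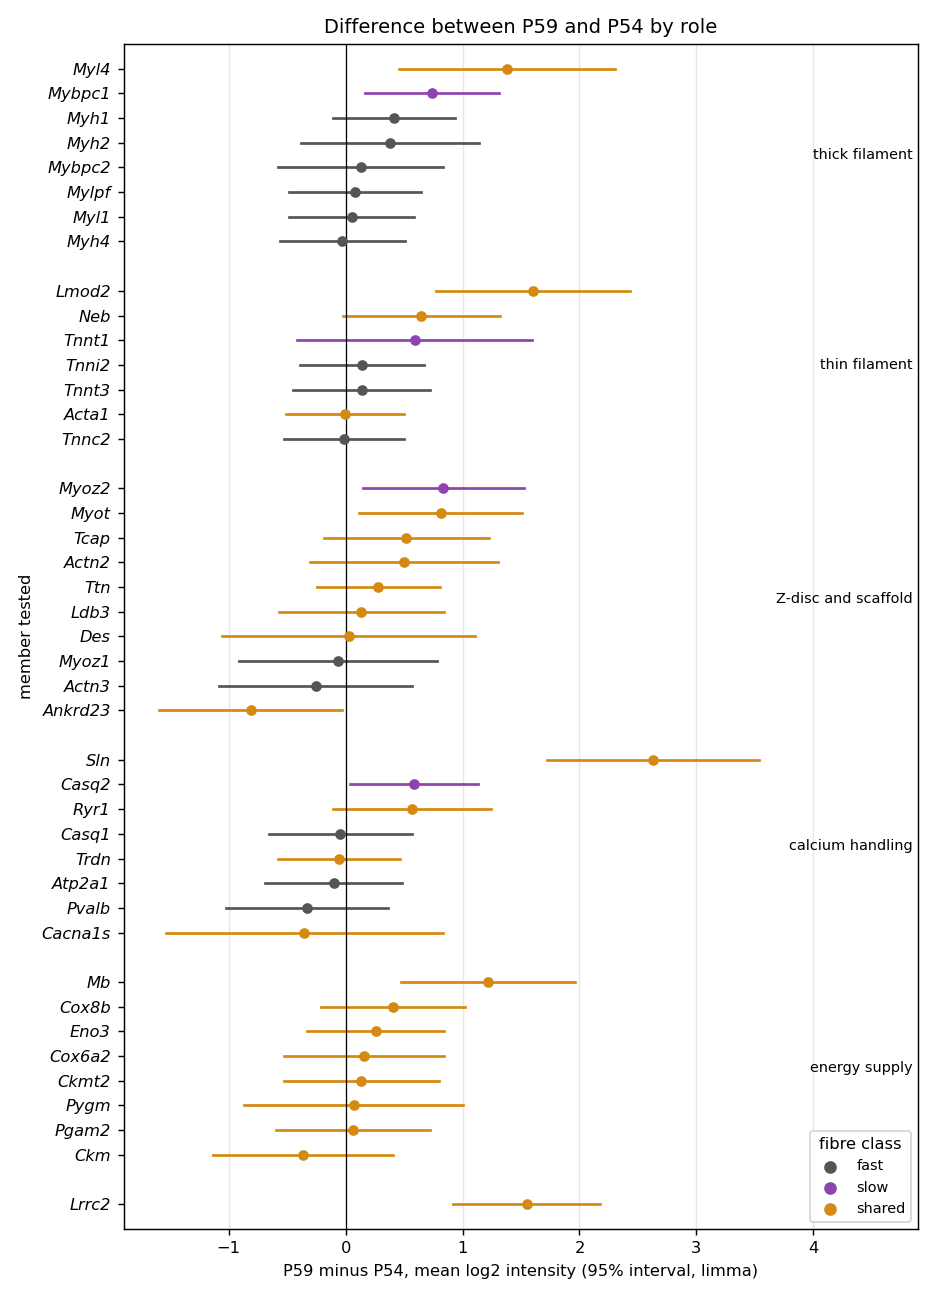
Difference of mean log2 intensity, P59 minus P54 (horizontal axis), for the 42 members tested, with limma's 95% interval as a line, by role and coloured by fibre class. The intervals of Sln, Lmod2, Lrrc2, Myl4, Mb, Myoz2, Myot, Mybpc1 and Casq2 lie above 0 and that of Ankrd23 below 0, and the fast genes lie near 0; 0 members passed the adjusted threshold.

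Each gene can also be given relative to the fast members of the same array, a description chosen after the values were seen. The fast median departed from its mean by 0.19 and -0.24 in P54 replicates 1 and 2 and by 0.25 and -0.18 in P59 replicates 1 and 2. Relative to it, the groups of 15 of the 28 other members tested were separate with P59 higher, against 6.76% of all genes other than the fast members. Those of 1, Ankrd23, were separate with P59 lower, against 12.0% of the tested genes that are not members. Beyond the 12 separate groups named above, less Myh1, the 15 with P59 higher included Ryr1, Tcap, Cox8b and Eno3. Relative to the fast median Sln gave -1.09 and -1.49 at P54 and 1.72 and 0.84 at P59. Mb gave -0.24 and -0.93 at P54 and 0.48 and 0.67 at P59, and Myoz2 gave -0.12 and -0.67 against 0.17 and 0.60. The fast median varied less over the arrays than the median of the other skeletal muscle genes described next (0.15, -0.49, 0.50 and -0.05), so that subtracting it leaves part of the common order of the arrays in place. Most fast members had means of at least 13, and members at that level varied least over the arrays. Their range had a median of 0.56, against 1.23 for members between 8 and 13. The part of level in the separate groups was not tested. Genes outside muscle do not follow the fast median, so their share is not a like-for-like background.

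A wider list of 68 other skeletal muscle genes, 53 of them tested, had a median difference of 0.41, and 43 of its tested genes were above 0 and 10 below, beside 58.4% of all genes tested above 0. In limma's test 0 passed the adjusted threshold, and 12 (22.6% against 6.49% of all genes tested) had an unadjusted p under 0.05, with 12 higher and 0 lower at P59. The genes of this list with the largest differences were Myom3, a myomesin of the M-band in slow and intermediate fibres (1.15, adjusted p = 0.281), Csrp3, the muscle LIM protein (1.02, adjusted p = 0.481), Apobec2, a muscle member of a deaminase family (0.93, adjusted p = 0.616), and Smpx, a small protein of striated muscle (0.92, adjusted p = 0.495). Myom3 read 7.19 and 6.54 on the P54 arrays and 8.02 and 8.01 on the P59 arrays. Of the list's 62 measured genes, 49 were highest in P59 replicate 1 and 47 lowest in P54 replicate 2. Replicate 1 was above replicate 2 at both times for 54 of them, against 26% of all genes tested.

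The myogenic regulators had 9 of 14 measured genes above the filter. Myf6 (MRF4), the regulator that adult fibres keep, had log2 levels of 8.89 and 8.31 (P54) against 9.42 and 9.06 (P59) (0.64, adjusted p = 0.742). It was the 1 gene of this list with an unadjusted limma p under 0.05. The satellite cell gene Pax7 lay between 4.22 and 5.14 and Myf5 between 3.31 and 4.49, both below the filter.

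In lists of other cells of skin, the order of the arrays varied. The 10 smooth muscle genes had median departures of 0.21 and 0.00 in P54 replicates 1 and 2 and of 0.03 and -0.02 in P59 replicates 1 and 2. Replicate 1 was thus above replicate 2 at both times in the medians, and in 3 of the 10 genes, against 26% of all genes tested. The Schwann cell and nerve list (3 tested) had the same order, with medians of 0.25, -0.07, -0.13 and -0.31. White adipocyte genes (9 tested) had medians of 0.27, 0.02, -0.09 and -0.01, and epidermal genes (8 tested) of 0.10, 0.23, -0.07 and -0.31. The macrophage list (8 tested) had medians of -0.15, -0.45, 0.13 and 0.52 in this order of arrays. Of these lists, that of macrophages was higher at P59 as were the members named first. Above 0 were 8 of its 8 genes (58.4% of all genes tested), with 5 at an unadjusted limma p under 0.05 (6.49% of all). Its summed level (log2) was 12.97 and 12.76 at P54 and 13.03 and 13.55 at P59. The epidermal list went the other way, with 8 of 8 genes below 0. The groups of 6 of them were separate with P59 lower, against 14.8% of all genes tested. Of the fascia and tendon list, 4 of 9 genes passed the filter, and they differed by 0.99 (Tnmd, adjusted p = 0.495), 0.98 (Thbs4, adjusted p = 0.520), 0.08 (Tnxb) and -0.25 (Fmod). Below the filter, Mkx (0.92) and Kera (-0.34) had separate groups in opposite directions. Scx, Comp and Chad, also below it, differed by -0.12, -0.003 and -0.08 with overlapping groups. The median over the 9 measured genes was -0.003. The brown fat gene Ucp1 lay between 4.24 and 4.84, below the filter, beside the muscle and brown fat gene Cox8b. Of the 6 genes of the brown adipocyte list, 2 did pass the filter. These were Cidea and Elovl3, which differed by -0.34 and -0.003 with overlapping groups. The part of these cells in the muscle differences was not tested.

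**Figure D4:**
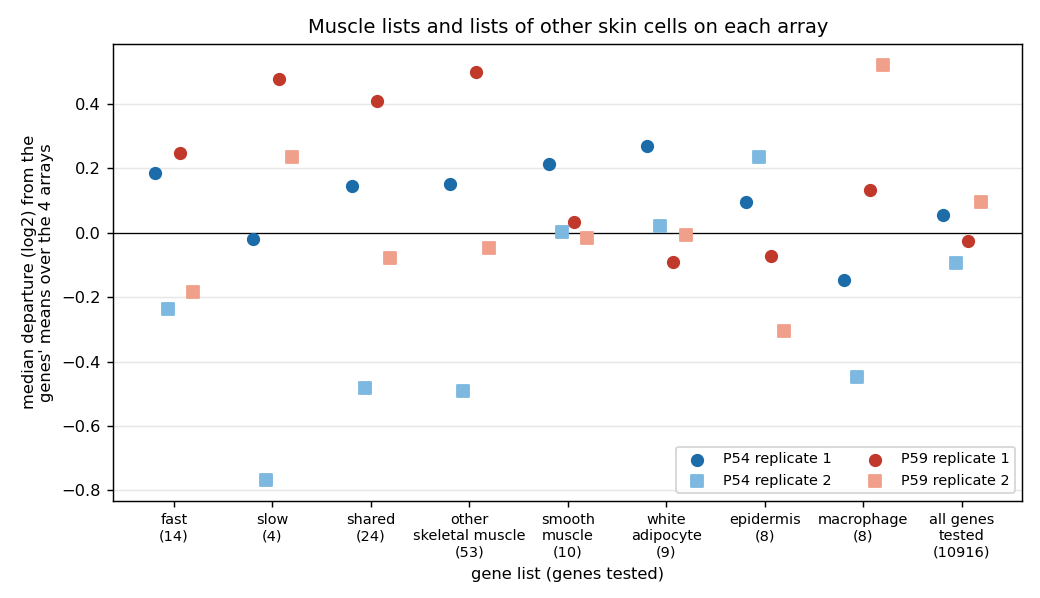
Median departure (log2) of the genes of each list from their means over the 4 arrays, for each array, with the number of genes tested under each list. In the fast, slow, shared and other skeletal muscle lists the circles of replicate 1 lie above the squares of replicate 2 at both times. The smooth muscle medians have this order too, though only 3 of its 10 genes do. The white adipocyte, epidermis and macrophage medians do not have it.

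Other probe sets served as a check on the sets used, which were those with the highest mean of each gene. Of 73 member probe sets, 28 in 16 genes were not used, and 9 of these lay below the filter level. Of the 19 above it, 11 had a difference of the same sign as the set used. The largest disagreements, named after their values were seen, were in weaker sets. The other set of Myh4 was at 11.34, 10.28 and 11.99 in P54 replicates 1 and 2 and P59 replicate 1 but at 4.54 in P59 replicate 2, whereas the set used lay between 13.73 and 14.12 on all arrays. A weak set of Ttn, the giant spring protein titin, was at 9.21 in P54 replicate 2 and between 6.03 and 6.13 elsewhere, while the set used ranged from 13.09 to 13.63. With the mean of all sets the sign of Ryr1 (-0.36), Ttn (-0.17), Myoz1 (0.42) and Trdn (0.00) turned.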

How the data were processed

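Expression was measured on 4 arrays of whole dorsal skin. The authors deposited linear intensity values per probe set, from 6.41 to 24000, in 1 table. The submitters' processing notes name RMA and Affymetrix Expression Console. Their versions, settings and chip definition are not given in the sources used here.

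They were used as log2, with no pseudocount. Of 45101 probe sets, 34958 had 1 gene symbol in GEO's platform annotation, 932 had several and 9211 were unlisted. RefSeq's annotation of GRCm38.p6 matched 34754 of them by identifier and renamed 0. Each gene is given by its probe set of highest mean. Those over the 40th percentile of the means were tested in limma 3.58.1 (R 4.3.3, lmFit and eBayes without trend, 2 residual and 8.19 prior degrees of freedom), with Benjamini-Hochberg adjustment over all 10916 genes. An exact permutation test of 2 against 2 arrays cannot go below 0.333. The number of arrays limits the precision. The procedure was tested on simulated data.

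The members, lists, fibre classes and alternatives were chosen with earlier results of these data known. By a fixed rule, every member may be named, with values by array for the fast and slow partner genes, for Sln, Acta1, Ckm, Mb, Myl4, Lmod2, Lrrc2, Ryr1, Atp2a1, Pvalb, Des and Cox8b, and for the members with the 4 largest and 4 smallest differences. Of each other list at most 4 genes with the largest differences are named. Outside this rule, values by array of Myot and Neb, some genes below the filter and the genes of developing muscle and the junction were picked after seeing values, or define a cell type. Promoter sequences are RefSeq's. Replicate numbers were checked for pairing. The deviations of the same number at P54 and P59 had a correlation of -0.04 over all genes tested and -0.07 over the members tested. A correlation over genes takes out any shift common to them, so it cannot decide on the replicate order of the muscle genes. No block was used, since the labels state no pairing.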

Additional observations from a re-analysis of the deposited data

How the results depend on the processing

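The number of calls changed widely between settings, and the cause was not tested, though limma's prior degrees of freedom (8.19 with all arrays) changed too. Genes past the adjusted threshold numbered 2, and 0 without the filter, with a filter at the 60th percentile, with the mean of all probe sets, after repeated quantile normalization and with a pseudocount of 32 (limma, 458 to 1122 at an unadjusted p under 0.05). They numbered 47 with array medians set equal (prior 19.2) and 29 to 401 with 1 array left out. Members past the threshold numbered 3 with array medians set equal (Sln, Lmod2 and Lrrc2) and 1 to 4 with 1 array left out. With the replicate number as a block, 155 genes and 5 members (Sln, Lmod2, Lrrc2, Mb and Myl4) passed, with 1 residual degree of freedom and an infinite prior, as also without either P54 array. The numbers are not known to pair the samples, so this block result describes the fit only. The fits with 1 array left out have a single array at 1 time, so their counts describe the fit only as well. Members at an unadjusted p under 0.05 numbered 6 to 14 with 1 array left out. The medians with 1 array left out ranged from -0.090 to 0.53 for all members tested, -0.18 to 0.26 for fast, 0.41 to 1.11 for slow and 0.02 to 0.66 for shared genes. Relative to the fast median, an alternative chosen after seeing the data, the fast median was -0.036, near 0 by construction.
The sign turned with 1 array left out for these members, whose differences had the following ranges. These were Acta1 -0.091 to 0.087, Actn2 -0.0088 to 1.01, Actn3 -0.88 to 0.36, Atp2a1 -0.39 to 0.19, Cacna1s -1.32 to 0.61, Casq1 -0.32 to 0.23, Ckm -0.94 to 0.22, Ckmt2 -0.29 to 0.56 and Cox6a2 -0.23 to 0.54. Further ones were Des -0.90 to 0.95, Eno3 -0.029 to 0.54, Ldb3 -0.28 to 0.55, Mybpc2 -0.32 to 0.57, Myh2 -0.19 to 0.94, Myh4 -0.22 to 0.17, Myl1 -0.13 to 0.24, Mylpf -0.12 to 0.28 and Myoz1 -0.68 to 0.55. The others were Pgam2 -0.29 to 0.42, Pvalb -0.81 to 0.15, Pygm -0.61 to 0.75, Tnnc2 -0.13 to 0.11, Tnni2 -0.047 to 0.32, Tnnt1 -0.051 to 1.23, Tnnt3 -0.11 to 0.39 and Trdn -0.24 to 0.12. Signs turned too with array medians set equal Acta1 0.044, Casq1 0.00056, Myh4 0.019, Tnnc2 0.034, and with repeated quantile normalization Des -0.030, and with the mean of all probe sets Myoz1 0.42, Ryr1 -0.36, Trdn 0.0029, Ttn -0.17. The cause was not tested.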

Other observations

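Genes of developing muscle, chosen after their values were seen, were higher on both P59 arrays than on either P54 array. Myh8, the perinatal myosin heavy chain, gave 5.58 and 5.02 at P54 and 7.92 and 7.05 at P59, a difference of 2.18 that ranged from 1.75 to 2.62 with 1 array left out. Myh3, the embryonic heavy chain, read 4.62 and 5.55 on the P54 arrays and 7.57 and 6.20 on the P59 arrays (1.80, or 1.11 to 2.48 with 1 array left out). Both had means under the filter level, where log2 values are imprecise. In limma's test of all genes without a filter, they had adjusted p of 0.384 and 0.659.

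Genes of the neuromuscular junction differed among themselves. Musk, the receptor kinase that organises the junction, had log2 levels of 6.05 and 6.01 (P54) against 6.87 and 6.83 (P59) (0.82, adjusted p = 0.495 without the filter). Chrna1, the alpha subunit of the muscle acetylcholine receptor, was at 7.21 and 7.04 and at 8.25 and 7.62 (0.81, adjusted p = 0.672 without the filter). Chrnb1, the beta subunit, differed by 0.43 (adjusted p = 0.871 in limma) with separate groups. Of the other junction genes listed, Chrnd and Chrne (further receptor subunits) and Rapsn (rapsyn, which clusters the receptor) differed by 0.13, 0.11 and -0.23, with overlapping groups and means below the filter. Tnnt2, the troponin T gene of heart and of embryonic skeletal muscle, was at 6.61 and 7.06 and at 7.61 and 7.57 (0.75, adjusted p = 0.659 without the filter). Among the members, Myl4 and Sln, which developing muscle also expresses, were separate in the same direction. The ubiquitin ligase genes Trim63 and Fbxo32, known for their part in muscle atrophy, were higher by 0.76 and 0.71 (adjusted p = 0.499 and 0.590 in limma). Groups were separate with P59 higher for 18.9% of all genes tested, and genes picked for such a pattern are no evidence of a common cause.

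Myl2, the slow regulatory light chain, was at 7.60 in P54 replicate 1 and between 4.89 and 5.02 on the other arrays. Myh7, the slow heavy chain, was highest on that array too (6.49).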
